A study of Mus musculus with 10 samples.

Results

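The 10 genes described here encode the MHC class II presentation machinery of the mouse: the antigen-binding chains H2-Aa, H2-Ab1 and H2-Eb1, the invariant chain Cd74, the peptide editors H2-DMa, H2-DMb1 and H2-DMb2, the editor's inhibitors H2-Oa and H2-Ob, and the transcriptional activator Ciita. They were chosen by gene symbol from the known pathway, with earlier results of these data known. All 10 were found among the 17274 genes of the deposited table. Livers came from wild-type (WT) mice on CDAHFD, a high-fat diet that lacks choline, supplies protein as defined L-amino acids and induces nonalcoholic steatohepatitis (NASH), a fatty liver with inflammation and scarring. In 5 livers the mice had received an adeno-associated virus (AAV) encoding miR-181d-5p by intravenous injection, and in 5 livers they had received a control AAV. Both groups therefore carried the same genotype, diet and route of virus delivery. Strain, sex, age, virus dose, promoter and time of harvest were not given in the sources used here. Expression was measured by RNA sequencing of whole liver and is given as FPKM, fragments scaled to gene length and to the sequencing depth of the liver.

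MHC class II molecules are pairs of an alpha and a beta chain that carry peptides from endosomes to the cell surface, where CD4 T cells read them. The invariant chain blocks the peptide groove until endosomal proteases cut it down, the H2-DM pair then releases its last fragment and selects stable peptides, and the H2-O pair restrains H2-DM. Most of the set depends on Ciita, a co-activator without DNA-binding activity of its own that is recruited by proteins bound to the X and Y boxes of the promoters. Constitutive expression marks dendritic cells, B cells and many macrophages, and interferon gamma induces Ciita in other cells. Hepatocytes express little of the set at rest.

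The 8 H2 members lie on chromosome 17 between 34092340 and 34316674 (mm10), a span of 224.3 kb that also holds 5 other genes of the table, while Ciita lies on chromosome 16 from 10480059 to 10528418. Because class II genes are known for shared promoter boxes, the RefSeq promoter windows (GRCm38.p6, the assembly called mm10), from 250 bases before to 50 bases after each start, were searched on both strands for the Y box core ATTGG and the X box core ACNNATG. Windows were at hand for 7 of the 10 members. In 4 of them the X core was followed on the coding strand by the Y core at a distance of 20 to 23 bases (10 to 35 were allowed), a pair that 0.851% of the first windows of 27025 genes hold on either strand. Alone, the X core occurs in 30.4% and the Y core in 37.9% of those windows, and the cores do not overlap in the stretches below. The first 4 stretches hold the pair, with both cores in capitals. The last 2, from H2-Aa and H2-Oa, have only the Y core in capitals, as the X core string had no match there, and are shown for comparison. Each is read 5′ to 3′ on the coding strand.
H2-Eb1 (chr17:34305768-34305822, plus strand): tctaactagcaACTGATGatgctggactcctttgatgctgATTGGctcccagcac
H2-DMb1 (chr17:34153090-34153144, plus strand): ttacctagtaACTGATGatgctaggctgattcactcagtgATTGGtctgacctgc
H2-DMb2 (chr17:34145119-34145173, plus strand): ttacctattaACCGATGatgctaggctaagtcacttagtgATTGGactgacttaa
H2-Ob (chr17:34238808-34238862, plus strand): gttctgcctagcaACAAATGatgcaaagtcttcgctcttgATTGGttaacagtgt
H2-Aa (chr17:34287857-34287911, minus strand): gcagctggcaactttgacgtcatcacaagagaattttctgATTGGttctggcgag
H2-Oa (chr17:34092296-34092350, plus strand): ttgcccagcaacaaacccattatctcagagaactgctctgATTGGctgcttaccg
H2-Aa and H2-Oa held the Y core without an X core at that distance. Of the 2 windows of H2-DMa, the first held neither core and the second held a Y core without an X core. H2-Ab1, Cd74 and Ciita have no window shown. A match is a string of letters and was not tested as a binding site. A window without the X core string may still hold an X box of another sequence.

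The delivered microRNA belongs to a family of 4 whose members share the seed ACAUUCA, bases 2 to 8 counted from the 5′ end. It is printed here with its seed in capitals, beside the matches found in 3′ untranslated regions (GENCODE vM21), which are printed with the matched site in capitals.
mmu-miR-181d-5p (chr8:84178759-84178781, minus strand): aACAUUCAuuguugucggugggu
H2-Ab1, 7mer-m8 at base 45 of 311: ctgtaagaccTGAATGTctctgctccg
Ciita, 7mer-A1 at base 21 of 2676: ctctggacaaGAATGTActctgggaac
A 7mer-m8 pairs with bases 2 to 8 of the microRNA, and a 7mer-A1 is a pairing 1 base shorter followed by an A, which is in capitals as part of the site and is not counted as paired. Sites searched were the 8mer TGAATGTA, the 7mer-m8 TGAATGT and the 7mer-A1 GAATGTA, of which the 8mer contains both others.

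The longest annotated 3′ untranslated regions of 3 of the 10 members held a match, against 2702 of 11770 tested genes (23.0%). The other member with a match was Cd74, with a 7mer-m8 at base 241 of 490. The remaining 7 members, among them the chains H2-Aa and H2-Eb1, held none. Whether any site is used was not tested.

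All 10 genes were lower on average in miR-181d-5p livers, where 54.5% of all tested genes were lower. Their means lay at 61.0% to 96.7% of the control means, and none passed the adjusted threshold. The exception in direction was H2-DMb2, whose log2 change turned to 0.04 after quantile normalization, 0.01 with array weights and 0.00 or 0.01 without miR-181d-5p liver 4 or 5. The control livers were not alike: for the 3 chains, Cd74 and H2-DMb1, control livers 2, 3 and 4 lay above every miR-181d-5p liver while control liver 1 lay below every one. The 2 groups of 5 livers overlapped for all 10 genes. The median log2 change over the 10 genes was -0.42, against -0.02 over the 12053 genes tested. A log2 change is miR-181d-5p over control on log2(FPKM + 1), from limma with a two-sided test and Benjamini-Hochberg adjustment over all tested genes. The scale understates changes of genes with low FPKM.

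At an unadjusted p under 0.05, 5 of the 10 genes (H2-Aa, H2-Ab1, H2-Eb1, Cd74 and H2-Oa) were lower and 0 were higher, where 9.63% of all tested genes were lower by the same rule. With 1 liver left out that count ran from 1, without control liver 2, 3 or 4 or miR-181d-5p liver 4, to 7, without control liver 1 or 5 or miR-181d-5p liver 1, and without miR-181d-5p liver 2 or 5 it was 3. By the same rule 1161 of all 12053 tested genes were lower with all livers. With 1 liver left out that number ran from 674, without miR-181d-5p liver 4, to 1794, without control liver 5. After adjustment 0 of the 10 passed, with adjusted p from 0.259 to 0.866, and 0% of all tested genes passed. Over all genes, 1768 had an unadjusted p under 0.05, and limma-voom, run on read numbers worked back from the FPKM, called 0 after adjustment. Of the 10 genes 0 had groups that did not overlap, against 2.47% of all tested genes. The labels do not tie samples to separate animals, so each p reflects sample-to-sample spread, which may be partly technical. In whole liver, fewer class II-bearing cells and less RNA per cell cannot be told apart.

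**Figure D1:**
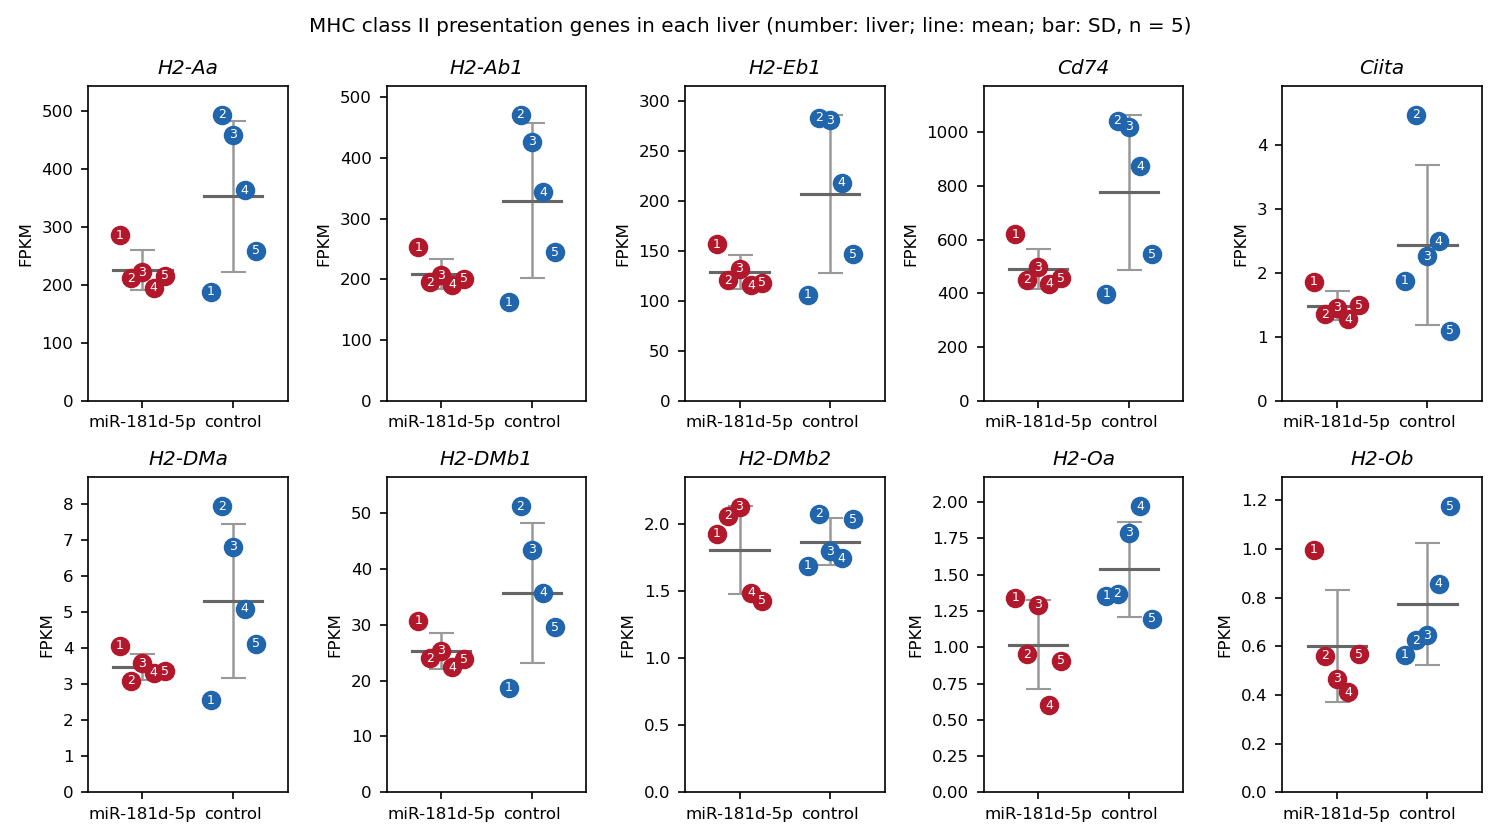
FPKM of the 10 class II presentation genes in each liver (vertical axes, linear, from 0), with miR-181d-5p livers in red on the left and control livers in blue on the right of each panel; numbers name the livers, lines are means and bars are SD (n = 5). For the 3 chains, Cd74 and H2-DMb1, control livers 2, 3 and 4 sit above all miR-181d-5p livers and control liver 1 below them, whereas H2-DMb2 covers a like range in both groups.

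The antigen-binding chains were among the abundant transcripts of these livers. H2-Aa, the alpha chain of H2-A, had 286, 211, 222, 195 and 216 FPKM in miR-181d-5p livers 1 to 5, against 189, 494, 459, 363 and 259 FPKM in control livers 1 to 5. The miR-181d-5p livers lay close together, and the control livers reached both further down and further up. The means were 226 ± 34.8 FPKM in miR-181d-5p livers and 353 ± 129 FPKM in control livers (SD, n = 5 each). The log2 change was -0.56 (SE 0.23), with an adjusted p of 0.302 by limma.

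H2-Ab1, the beta chain of H2-A, followed H2-Aa liver by liver. It had 253, 195, 207, 191 and 201 FPKM in miR-181d-5p livers, against 162, 471, 426, 343 and 245 FPKM in control livers. Control liver 5 fell just under miR-181d-5p liver 1, so that the highest miR-181d-5p liver overlapped the lower part of the control range. The means were 209 ± 24.9 FPKM in miR-181d-5p livers and 329 ± 127 FPKM in control livers (SD, n = 5 each), a log2 change of -0.56 (SE 0.24; limma adjusted p = 0.313).

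H2-Eb1, the beta chain of the second class II isotype, H2-E, had 157, 121, 132, 116 and 118 FPKM in miR-181d-5p livers, against 106, 283, 281, 218 and 147 FPKM in control livers. The order of the control livers was the same as for H2-Ab1. With means of 129 ± 16.9 FPKM in miR-181d-5p livers and 207 ± 79.3 FPKM in control livers (SD, n = 5 each), its log2 change of -0.59 (SE 0.23) had an adjusted p of 0.298 by limma. The annotated antisense gene Gm20513 overlaps H2-Eb1. The library kit keeps strand, but no source used here gives whether counting used it, so reads of such pairs may not be separated.

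Cd74, the invariant chain that guards the groove, stood highest of the 10 genes at every liver. It had 619, 451, 497, 435 and 457 FPKM in miR-181d-5p livers, against 399, 1042, 1019, 873 and 546 FPKM in control livers. Control livers 2 and 3 were again the highest. The means were 492 ± 74.5 FPKM in miR-181d-5p livers and 776 ± 289 FPKM in control livers (SD, n = 5 each), a log2 change of -0.57 (SE 0.24; limma adjusted p = 0.311). With 1 liver left out, the log2 change ran from -0.79 to -0.44 for Cd74 and from -0.77 to -0.42 for H2-Aa. It ran from -0.79 to -0.40 for H2-Ab1 and from -0.81 to -0.46 for H2-Eb1. Each was lowest without control liver 1 and highest without control liver 2.

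Ciita, the co-activator on which most of the others depend, was read at a far lower level. It had 1.87, 1.35, 1.45, 1.28 and 1.499 FPKM in miR-181d-5p livers, against 1.88, 4.47, 2.26, 2.49 and 1.099 FPKM in control livers. Here control liver 5, not control liver 1, was the lowest, and control liver 2 stood apart at the top. The means were 1.49 ± 0.227 FPKM in miR-181d-5p livers and 2.44 ± 1.25 FPKM in control livers (SD, n = 5 each), so the mean in miR-181d-5p livers was 61.0% of the control mean. The log2 change was -0.40 (SE 0.19), with an adjusted p of 0.359 by limma. It ran from -0.56 without control liver 5 to -0.21 without control liver 2. Dexi lies on the opposite strand and overlaps Ciita.

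The peptide editor H2-DM is a pair of H2-DMa with a beta chain from H2-DMb1 or H2-DMb2. H2-DMa had 4.06, 3.09, 3.58, 3.32 and 3.36 FPKM in miR-181d-5p livers, against 2.55, 7.94, 6.81, 5.09 and 4.12 FPKM in control livers. In this gene 4 of the 5 control livers lay above all miR-181d-5p livers, and control liver 1 lay below them. The log2 change was -0.42 (SE 0.20; limma adjusted p = 0.349), and ran from -0.61 without control liver 1 to -0.28 without control liver 2.

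H2-DMb1 had 30.6, 23.9, 25.3, 22.4 and 23.8 FPKM in miR-181d-5p livers, against 18.7, 51.2, 43.3, 35.7 and 29.5 FPKM in control livers. Its log2 change was -0.42 (SE 0.21; limma adjusted p = 0.367), and ran from -0.62 without control liver 1 to -0.27 without control liver 2. The pattern over livers was that of H2-DMa, although the level was 6.36 to 7.74 times higher in FPKM. That factor rests on gene length: the FPKM of H2-DMa imply a length of 8325 bases, while its merged exons in GENCODE vM21 span 3448 bases, and in recovered reads H2-DMb1 had 0.982 to 1.19 times as many as H2-DMa.

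H2-DMb2, the near-identical copy of H2-DMb1, did not follow it. It had 1.92, 2.06, 2.13, 1.49 and 1.43 FPKM in miR-181d-5p livers, against 1.69, 2.08, 1.80, 1.74 and 2.03 FPKM in control livers. The ranges lay over each other, and control livers 2 and 3, the highest for H2-DMb1, were not set apart. The log2 change was -0.04 (SE 0.09), with a 95% interval from -0.23 to 0.16 and an adjusted p of 0.866 by limma. Each liver gave 40 to 60 reads for H2-DMb2, against 465 to 1256 for H2-DMb1, and reads shared between the copies could be assigned to either.

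H2-Oa and H2-Ob encode the alpha and beta chains of H2-O, the inhibitor of H2-DM, known chiefly from B cells, thymic epithelium and some dendritic cells. H2-Oa had 1.34, 0.951, 1.29, 0.601 and 0.906 FPKM in miR-181d-5p livers, against 1.35, 1.37, 1.79, 1.97 and 1.19 FPKM in control livers. Control liver 1 was not below the miR-181d-5p livers here, and among control livers liver 5 alone fell within the miR-181d-5p range. The log2 change was -0.33 (SE 0.12), with an adjusted p of 0.259 by limma, the smallest of the 10, and was -0.62 by limma-voom on recovered reads. It rests on 122 reads in all miR-181d-5p livers and 185 in all control livers, and the antisense gene BC051537 overlaps it.

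H2-Ob had 0.998, 0.562, 0.468, 0.412 and 0.568 FPKM in miR-181d-5p livers, against 0.565, 0.625, 0.645, 0.857 and 1.176 FPKM in control livers. Liver 1 of the miR-181d-5p group and livers 4 and 5 of the control group were high, and the other 7 livers lay from 0.412 to 0.645 FPKM. The log2 change was -0.15 (SE 0.11), with an adjusted p of 0.538 by limma, and was -0.37 by limma-voom on recovered reads. It was -0.07 without control liver 5 and -0.23 without miR-181d-5p liver 1. Neither H2-O gene had the order of livers seen in the chains.

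**Figure D2:**
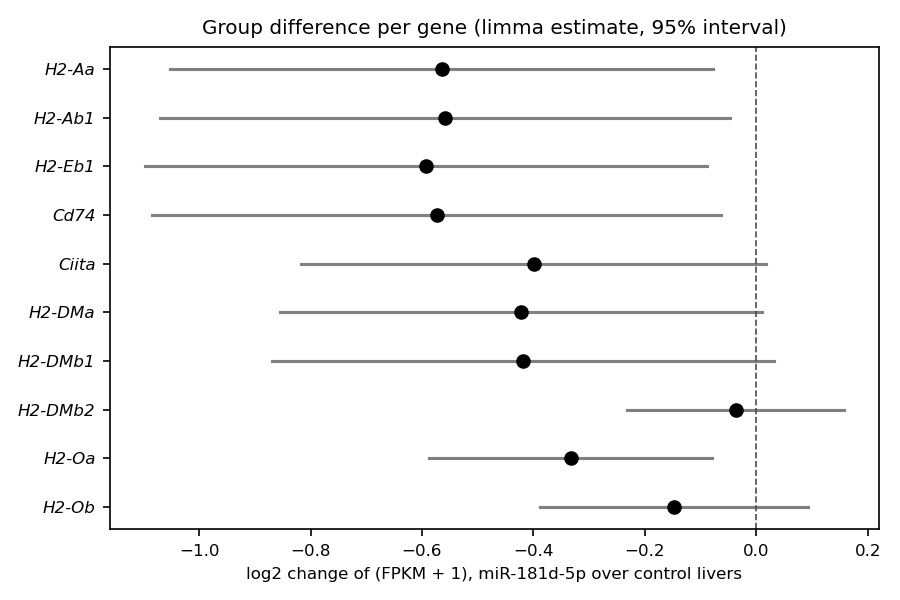
Log2 change of FPKM + 1 (horizontal axis), miR-181d-5p over control livers, for the 10 genes (vertical axis), with limma estimates as points and 95% intervals as lines (n = 5 per group). The intervals of H2-Aa, H2-Ab1, H2-Eb1, Cd74 and H2-Oa end below 0, and those of the other 5 genes cross 0; no gene passes adjustment over 12053 genes.

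In order of mean FPKM over all 10 livers, Cd74 at 634 was followed by H2-Aa at 289, H2-Ab1 at 269 and H2-Eb1 at 168. H2-DMb1 followed at 30.4 FPKM and H2-DMa at 4.39 FPKM, with the length caveat above. The lowest were Ciita at 1.97, H2-DMb2 at 1.84, H2-Oa at 1.28 and H2-Ob at 0.688 FPKM. The FPKM ratios between abundant genes varied little from liver to liver: the ratio of H2-Aa to H2-Ab1 ran from 1.02 to 1.16, that of H2-Eb1 to H2-Ab1 from 0.589 to 0.659, and that of Cd74 to H2-Ab1 from 2.21 to 2.54. The order of the 3 chains rests on the lengths behind the FPKM. With merged exon lengths of GENCODE vM21 in their place, an alternative chosen after seeing the data, the ratio of H2-Aa to H2-Ab1 would run from 0.652 to 0.744 and that of H2-Eb1 to H2-Ab1 from 1.09 to 1.22. Cd74 would stay above H2-Ab1, at 4.01 to 4.61 times its level. Ciita and H2-DMb2 overlapped over livers and had no fixed order.

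For the 3 chains, Cd74, H2-DMa, H2-DMb1 and Ciita, the spread differed between groups. In the 3 chains, Cd74, H2-DMa and H2-DMb1, the highest miR-181d-5p liver was 1.31 to 1.47 times the lowest, while the highest control liver was 2.61 to 3.11 times the lowest. In Ciita the factor was 1.46 over miR-181d-5p livers and 4.07 over control livers. The SD of log2(FPKM + 1) was larger in control livers for 7 of the 10 genes, and for 76.1% of all tested genes. The larger spread in control livers was thus no more frequent among the 10 genes than over the table, and the difference in spread itself was not tested.

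Across the 10 livers, 5 genes varied with H2-Ab1 with little scatter. On log2(FPKM + 1), Pearson's r to H2-Ab1 was 0.99 for each of H2-Aa, H2-Eb1, H2-DMa, H2-DMb1 and Cd74, with Spearman's rho from 0.98 to 1. The permutation p of r was 1e-05 for each, the smallest that 100000 resamples can give, and 2.6e-05 after Benjamini-Hochberg adjustment over 13 relations. Without control livers 2 and 3, the farthest from the median of H2-Ab1, r was 0.98 to 0.99 in these 5 genes. With group means removed it was again 0.99 for each, so the relation does not rest on the difference between groups.

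For Ciita the relation to H2-Ab1 had r = 0.78 (permutation p = 0.00563, adjusted 0.00915) and rho = 0.60 (permutation p = 0.0737, adjusted 0.0871). Without control livers 2 and 3, r of Ciita was 0.49, so the relation rests on those livers. The FPKM ratio of Ciita to H2-Ab1 spanned 0.00669 to 0.00745 over miR-181d-5p livers, against 0.00449 to 0.0116 over control livers, where liver 1 was highest and liver 5 lowest. H2-Oa had r = 0.64 (permutation p = 0.0467, adjusted 0.0607) and rho = 0.67 (permutation p = 0.0383, adjusted 0.0623). H2-DMb2 had r = 0.30 and rho = 0.41 (permutation p = 0.399 and 0.246, adjusted 0.416 and 0.267), and H2-Ob had r = 0.29 and rho = 0.64 (permutation p = 0.416 and 0.0543, adjusted 0.416 and 0.0784).

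**Figure D3:**
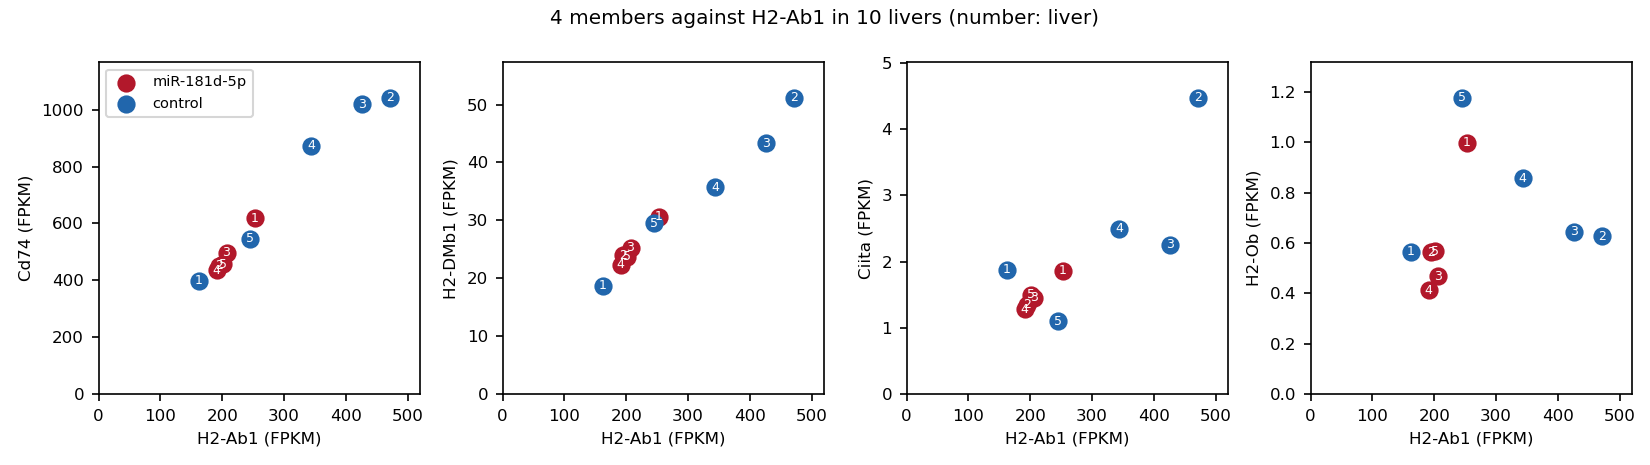
FPKM of Cd74, H2-DMb1, Ciita and H2-Ob (vertical axes) against FPKM of H2-Ab1 (horizontal axes) in 10 livers, with miR-181d-5p livers in red and control livers in blue, each numbered. Cd74 and H2-DMb1 rise with H2-Ab1 along a single line through both groups, Ciita scatters and has control liver 2 apart at 4.47 FPKM, and H2-Ob has its highest value in control liver 5, at 1.176 FPKM.

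Whether members differed from each other between groups was asked of log2 ratios within livers by two-sided exact permutation tests over all labellings of the 10 livers, adjusted over 6 ratios. Cd74 to H2-Ab1 differed by -0.01 (miR-181d-5p minus control; exact permutation p = 0.754, adjusted 0.754). H2-DMa to H2-Ab1 differed by 0.14 (exact permutation p = 0.0794, adjusted 0.381), and Ciita to H2-Ab1 by 0.16 (exact permutation p = 0.452, adjusted 0.679). With a pseudocount of 0.1 these were 0.07 and 0.01, and with 1 liver left out the Ciita ratio ran from 0.04 without control liver 3 to 0.34 without control liver 1. H2-Oa to H2-DMa, inhibitor to editor, differed by 0.09 (exact permutation p = 0.714, adjusted 0.754), and by -0.08 to 0.25 with 1 liver left out. No ratio among members passed the test with all 10 livers.

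The proteins that bring Ciita to class II promoters are the RFX factors, the trimer of NFY and CREB1. Of these 7 genes 4 were lower and 3 higher, with a median log2 change of -0.00 (0.07 after quantile normalization, and -0.05 to 0.07 with 1 liver left out), and 2 were lower and 1 higher at an unadjusted p under 0.05. Nfya, the DNA-contacting subunit of NFY, had 7.10 ± 0.468 FPKM in miR-181d-5p livers and 9.33 ± 0.816 FPKM in control livers (SD, n = 5 each; log2 change -0.35, limma adjusted p = 0.221). Its partner Nfyb had 10.4 ± 0.611 FPKM in miR-181d-5p livers and 9.13 ± 0.844 FPKM in control livers, with a log2 change of 0.17 and a limma adjusted p of 0.331. Creb1 had 3.38 ± 0.346 FPKM in miR-181d-5p livers and 4.25 ± 0.635 FPKM in control livers (log2 change -0.26, limma adjusted p = 0.280). No gene of this or any list below passed the adjusted threshold. Counts of lower genes in the lists stand against 54.5% of all tested genes that were lower. Counts at an unadjusted p under 0.05 stand against 9.63% of all tested genes lower and 607 of 12053 higher. With 1 liver left out, 674 to 1794 of all tested genes were lower by that rule.

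Of the path by which interferon gamma induces Ciita, 8 of 9 genes were tested, all 8 were lower, 0 had an unadjusted p under 0.05 and the median log2 change was -0.12. With 1 liver left out, 0 to 2 had an unadjusted p under 0.05 and the median ran from -0.16 to -0.07. For Irf1, a transcription factor induced by interferon, r to H2-Ab1 was 0.87 and rho 0.94 (permutation p = 0.00094 and 0.00015, adjusted 0.00175 and 0.000325), and r was 0.96 without control livers 2 and 3. Irf1 had 14.4 ± 1.5 FPKM in miR-181d-5p livers and 17.9 ± 3.67 FPKM in control livers (SD, n = 5 each; log2 change -0.28, limma adjusted p = 0.340). Ifng itself was too low to test, and was listed at 0 in 1 miR-181d-5p and 2 control livers.

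Among the neighbours of the H2 members on chromosome 17, the 4 genes of class I peptide supply varied like the class II genes. Psmb8 and Psmb9, subunits of the immunoproteasome, and Tap1 and Tap2, the peptide transporter, had r of 0.98, 0.96, 0.96 and 0.97 to the mean of the 3 chains over 10 livers. Psmb8 had 54.2 ± 4.96 FPKM in miR-181d-5p livers and 75.3 ± 25.5 FPKM in control livers (SD, n = 5 each; log2 change -0.40, limma adjusted p = 0.368). Brd2, a chromatin reader in the same span whose annotation overlaps H2-DMa, had r = 0.36.

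By the same measure, 11008 genes that averaged 1 FPKM or more were ranked for likeness to the 3 chains. Leaving out members, other genes of the H2 region and unnamed gene models, the first 5 were Ubd (r = 0.972), Uba7 (0.968), Fcgr4 (0.967), Serping1 (0.966) and Gbp8 (0.955). Ubd encodes a ubiquitin-like modifier, Uba7 the activating enzyme of ISG15, Fcgr4 an Fc receptor, Serping1 the inhibitor of complement C1 and Gbp8 a guanylate-binding protein. Ubd had 55.6 ± 11.8 FPKM in miR-181d-5p livers and 103 ± 49.8 FPKM in control livers (SD, n = 5 each; log2 change -0.74, limma adjusted p = 0.2996). The likenesses are given as a description over 10 livers that share their libraries with the members.

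**Figure D4:**
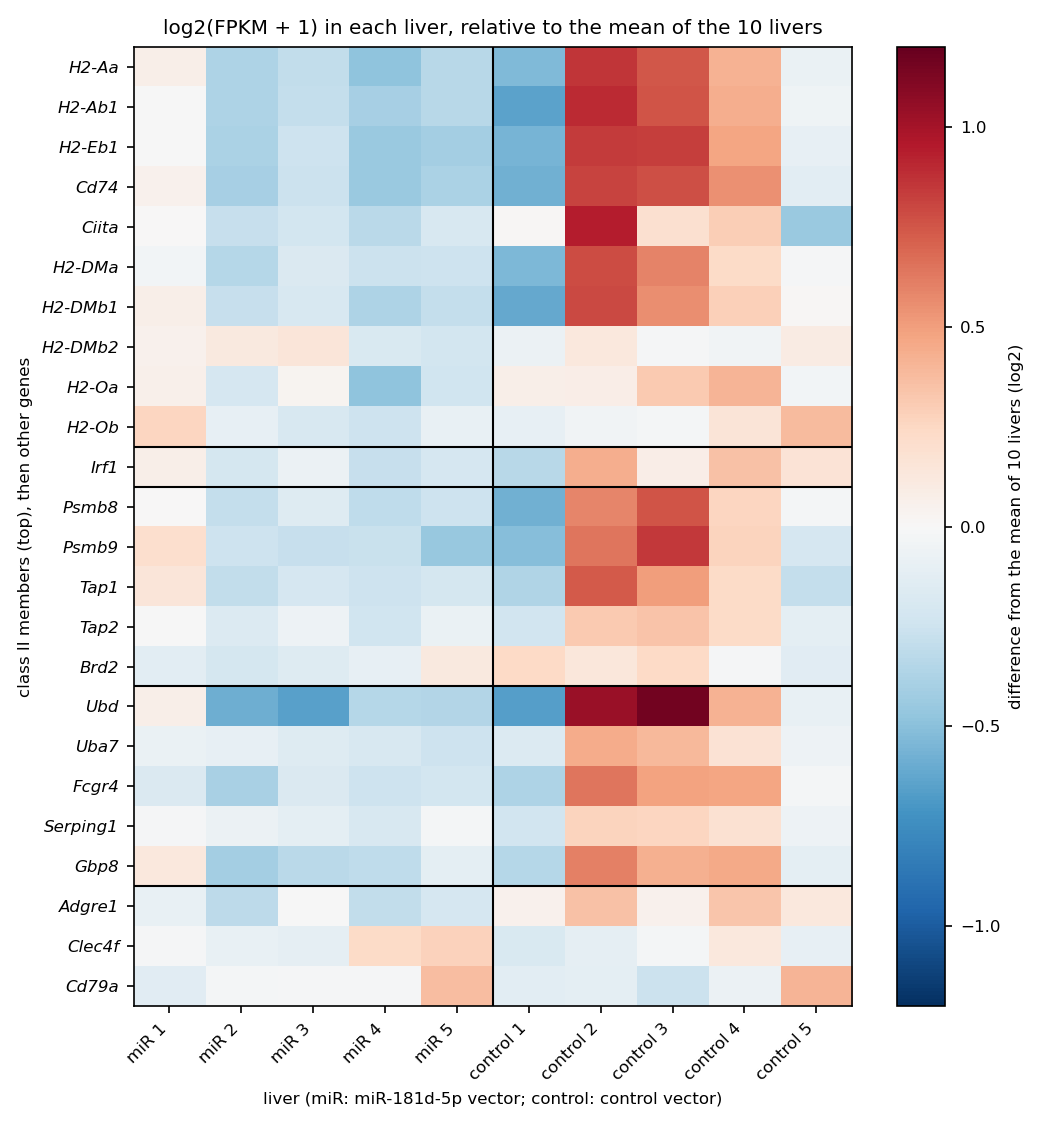
Difference of log2(FPKM + 1) from the mean of the 10 livers (color, log2) for the 10 class II genes, Irf1, 5 neighbours on chromosome 17, the 5 genes most like the chains, and Adgre1, Clec4f and Cd79a as markers of macrophages, Kupffer cells and B cells (vertical axis), by liver (horizontal axis, miR-181d-5p livers left of control livers). Control livers 2, 3 and 4 are red and control liver 1 is blue for the chains and the genes like them. The rows of Ciita, H2-DMb2, H2-Oa, H2-Ob, Brd2, Adgre1, Clec4f and Cd79a do not share all of this pattern. Adgre1 had 39.0 FPKM in control liver 1, above every miR-181d-5p liver. Other genes of the Kupffer and B cell lists differ from Clec4f and Cd79a in r to the chains and are given in the text.

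Of 9 genes of endosomal processing, 8 were lower, 2 at an unadjusted p under 0.05, with a median log2 change of -0.14. With 1 liver left out that count ran from 0, without control liver 4 or miR-181d-5p liver 4, to 5, without control liver 1, and the median ran from -0.19 to -0.08. Ctss, cathepsin S, the protease that makes the last cuts in the invariant chain, had 443, 363, 469, 264 and 373 FPKM in miR-181d-5p livers, against 360, 525, 514, 606 and 581 FPKM in control livers. Of the control livers 4 lay above all miR-181d-5p livers and control liver 1 lay among them, a log2 change of -0.44 (limma adjusted p = 0.276). Lgmn, an asparaginyl endopeptidase, had 189 ± 13.7 FPKM in miR-181d-5p livers and 222 ± 30.2 FPKM in control livers (SD, n = 5 each; log2 change -0.22, limma adjusted p = 0.315). Ctsl, cathepsin L, which can cut the invariant chain too, was the 1 gene of the list that was higher, at 364 ± 24.3 FPKM in miR-181d-5p livers and 323 ± 64.7 FPKM in control livers, with a limma adjusted p of 0.480.

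At the surface, the 4 tested genes that set class II turnover were all lower, 0 at an unadjusted p under 0.05, with a median log2 change of -0.13 (0 to 1 gene and -0.17 to -0.08 with 1 liver left out). Among them Cd83, which spares class II from ubiquitination, had 9.32 ± 1.06 FPKM in miR-181d-5p livers and 11.47 ± 2.59 FPKM in control livers (SD, n = 5 each; limma adjusted p = 0.386). Of 5 tested costimulation genes 4 were lower, 1 at an unadjusted p under 0.05, with a median log2 change of -0.22 (1 to 3 genes with 1 liver left out, 3 without control liver 1 or miR-181d-5p liver 1). That gene was Icosl, a ligand for T cells, with 1.47 ± 0.156 FPKM in miR-181d-5p livers and 2.24 ± 0.570 FPKM in control livers (log2 change -0.37, limma adjusted p = 0.240). The 5 tested partners on CD4 T cells were all lower, 2 at an unadjusted p under 0.05, with a median log2 change of -0.24 (1 to 3 genes with 1 liver left out, and 4 of 5 lower after quantile normalization). Cd4, the coreceptor that binds class II, had 0.457 ± 0.0876 FPKM in miR-181d-5p livers and 0.720 ± 0.176 FPKM in control livers (log2 change -0.24, limma adjusted p = 0.253). Of further class II genes, H2-Eb2 was in the table and too low to test, at 0.240 to 0.519 FPKM in miR-181d-5p livers and 0.318 to 0.477 FPKM in control livers.

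Markers of the cells that carry class II differed in direction between lists. Their counts at an unadjusted p under 0.05 stand against 9.63% of all tested genes lower and 607 of 12053 higher. All 13 pan-macrophage markers were lower, 9 at an unadjusted p under 0.05 (7 to 12 with 1 liver left out), their median log2 change was -0.30 and their summed level was 1751 to 3053 FPKM in miR-181d-5p livers and 2330 to 3450 FPKM in control livers. The largest part of that sum was Lyz2, at 1203 FPKM in miR-181d-5p livers and 1456 FPKM in control livers on average (log2 change -0.31, limma adjusted p = 0.494). Adgre1, which encodes F4/80, had 33.0 ± 3.19 FPKM in miR-181d-5p livers and 42.9 ± 4.56 FPKM in control livers (SD, n = 5 each; log2 change -0.36, limma adjusted p = 0.221). Its r to H2-Ab1 was 0.69 and rho 0.61 (permutation p = 0.03 and 0.0675, adjusted 0.0433 and 0.0871), with r = 0.49 once group means were removed. The log2 ratio of H2-Ab1 to Adgre1 differed by -0.19 between groups (exact permutation p = 0.452, adjusted 0.679). With 1 liver left out it ran from -0.39 without control liver 1 to -0.04 without control liver 3.

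Of 10 tested dendritic cell markers 9 were lower, 2 at an unadjusted p under 0.05 (Itgax and Irf8; 0 to 3 with 1 liver left out), their median log2 change was -0.15 and their sums were 32 to 45.6 FPKM in miR-181d-5p livers and 44.6 to 53.8 FPKM in control livers. Itgax averaged 13.6 FPKM in miR-181d-5p livers and 17.9 FPKM in control livers. Irf8 averaged 14.5 and 17.6 FPKM, and these 2 genes made up most of the sums. The other tested genes had log2 changes from -0.20 for Ccr7 to 0.02 for Cd209a. Of 9 Kupffer cell markers 2 were lower and 7 higher, with Marco higher at an unadjusted p under 0.05, a median of 0.04 and sums of 638 to 750 FPKM in miR-181d-5p livers and 655 to 799 FPKM in control livers. The call of Marco was lost with FPKM scaled to a common sum, with quantile normalization and with limma-voom. It was also lost without control liver 1, 3, 4 or 5, and the Kupffer cell median ran from 0.02 to 0.09 with 1 liver left out. Cd5l, 1 of the 2 lower genes, was the largest part of the sums, at 381 FPKM in miR-181d-5p livers and 412 FPKM in control livers on average. Of the 9 genes, r to the mean of the 3 chains was -0.20 for Folr2, -0.15 for Timd4, -0.12 for Clec4f, -0.09 for Slc40a1 and -0.08 for Marco. It was 0.04 for Cd163, 0.27 for Cd5l, 0.49 for Nr1h3 and 0.52 for Vsig4. Of 9 monocyte markers 7 were lower, 1 at an unadjusted p under 0.05 (Plac8; 0 to 4 with 1 liver left out), with a median of -0.15 and sums of 150 to 160 FPKM in miR-181d-5p livers and 135 to 180.6 FPKM in control livers. Most of that sum was F10, coagulation factor X, at 117 FPKM in miR-181d-5p livers and 108 FPKM in control livers on average. Without F10, a choice made after seeing the data, the sum was 33.7 to 40.9 FPKM in miR-181d-5p livers and 35.4 to 64.5 FPKM in control livers. The Kupffer cell median thus had the opposite sign to the other myeloid medians under each scaling tried, and the difference was not tested.

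Lymphocyte markers were low throughout. Of 5 tested B cell markers 3 were lower, 0 at an unadjusted p under 0.05, their median log2 change was -0.08 and their sums were 7.70 to 9.56 FPKM in miR-181d-5p livers and 7.66 to 9.80 FPKM in control livers. Cd79a, a chain of the B cell receptor, had r = -0.36 and rho = -0.35 to H2-Ab1 (permutation p = 0.293 and 0.332, adjusted 0.347 and 0.332). Its r was 0.02 without control livers 2 and 3, so the negative sign rests on those livers. The log2 ratio of H2-Ab1 to Cd79a differed by -0.63 (exact permutation p = 0.127, adjusted 0.381). With 1 liver left out it ran from -0.83 without control liver 1 to -0.45 without control liver 2. The other 4 tested B cell genes had positive r to the mean of the 3 chains, from 0.22 for Fcrla to 0.26 for Cd79b, against -0.40 for Cd79a. The 7 tested T cell markers were all lower, 1 at an unadjusted p under 0.05 (Lck), with a median of -0.09 and sums of 6.32 to 9.29 FPKM in miR-181d-5p livers and 6.43 to 13.6 FPKM in control livers. After quantile normalization 4 of the 7 were lower and 3 higher, with a median of -0.03, and the median ran from -0.20 without control liver 1 to -0.06 without control liver 4. The call of Lck was lost after quantile normalization and without control liver 3 or 4. Hepatocyte markers, which check the tissue label, summed to 40462 to 45902 FPKM in miR-181d-5p livers and 38994 to 45487 FPKM in control livers, with 2 of 10 lower, 8 higher, Ttr higher at an unadjusted p under 0.05 and a median of 0.05. The call of Ttr was lost without control liver 1, 2 or 4. The part of any cell type in the class II values was not tested.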

How the data were processed

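Libraries came from mirVana-extracted total RNA by the TruSeq Stranded mRNA kit, per the labels' protocols. The submitters' processing notes name build mm10 and, with no roles, HTSeq 0.13.5, HISAT2 2.2.1, DESeq2 1.18.1, Trimmomatic 0.38, FastQC 0.11.9 and R 3.4.1. The authors deposited 1 table of FPKM per gene and liver. 0 columns were left unused. The FPKM steps of 17273 of the 17274 genes gave whole reads within 0.02 of a read, with 18985912 to 20657019 reads a liver. Replicate livers differed by more than counting noise. The 12053 genes averaging 0.5 FPKM or more over 10 livers were fitted as log2(FPKM + 1) with limma 3.58.1 (trended variance) in R 4.3.3, and other tests used Python 3.11.15 with scipy 1.17.1. The fit was checked on simulated data drawn independently for each gene, with the same SD in both groups. That check does not cover a larger spread in control livers or genes that vary together.

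The 10 genes and all gene lists were chosen with earlier results of these data known. The text names the 10 genes, up to 4 genes of each list with the smallest p and the 5 genes most like the chains. The 5 neighbours on chromosome 17, overlapping antisense genes, H2-Eb2 and Ifng fall outside this rule and were named after their values were seen. The same holds for Lyz2, Cd209a, Cd5l, Nr1h3, Folr2, Slc40a1 and Cd163, and Cd79a was set with the ratios. Promoters and the microRNA came from RefSeq (GRCm38.p6), and 3′ untranslated regions from GENCODE vM21, both of the build the authors used. 1 gene is not reported here by itself. Alternatives changed the pseudocount, filter, scaling, variance model and livers included.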

Additional observations from a re-analysis of the deposited data

Results flagged for a closer look

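H2-Ab1 in miR-181d-5p liver 1 stood at 252.5 FPKM, above the other 4 livers of its group, with a gap to the nearest of 0.743 of the group's range. H2-Ob in the same liver stood at 0.9975 FPKM, with a gap of 0.735 of the range. The critical value for 5 samples is 0.71. These were 2 of 20 groups of livers examined (10 genes in both groups), and chance flags about 1 in 20. Without that liver, 7 of the 10 genes were lower at an unadjusted p under 0.05, H2-Ob among them. By the same rule 1115 of all 12053 tested genes were lower in that fit.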

How the results depend on the processing

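Over 20 alternatives, 195 of 199 log2 changes of the 10 genes were lower in miR-181d-5p livers and 0 passed adjustment (limma adjusted p 0.109 to 0.989). H2-Ob was not tested at a mean of at least 1 FPKM. The exceptions were H2-DMb2 at 0.008247 with array weights, at 0.03648 with quantile normalization, and at -0.078 to 0.013 with 1 liver left out, higher without miR-181d-5p liver 4 or 5. Genes passing adjustment over the whole table numbered 0, and 0 to 3 with 1 liver left out: 3 without control liver 1 (Inhbb, Jdp2 and Slc35d1), and 1 without control liver 5 (AA986860) or miR-181d-5p liver 3 (Npy). The count of the 10 genes at an unadjusted p under 0.05 was 5, 8 with array weights, and 1 to 7 with 1 liver left out. It was 1 (H2-Oa) without control liver 2, 3 or 4 or miR-181d-5p liver 4, 3 without miR-181d-5p liver 2 or 5, and 7 without control liver 1 or 5 or miR-181d-5p liver 1. Over all 12053 tested genes, 1161 were lower by that rule, 1297 with array weights and 836 with a replicate block. With 1 liver left out, 674 to 1794 of them were lower. With a replicate block, 1 gene of the table (Ccn2) passed and the count of the 10 genes stayed at 5. Same-numbered livers did not deviate together (correlations -0.283 to 0.015, 0 of 5 over 0.1), and 0 of 5 miR-181d-5p livers correlated best with their own number. The labels do not say what the numbers mean, and such correlations cannot exclude that same-numbered livers shared a batch. The log2 ratio of Cd74 to H2-Ab1 ran from -0.03855 to 0.01141 with 1 liver left out, the highest without control liver 4. That of H2-Oa to H2-DMa was -0.07732 with a pseudocount of 0.1 and ran from -0.07733 (without control liver 2) to 0.2529 with 1 liver left out. The pseudocount changes low genes most: H2-Oa stood at -0.57, Ciita at -0.55 and H2-Ob at -0.33 with a pseudocount of 0.1. At an unadjusted p under 0.05, 607 genes were higher and 1161 lower, against 347 higher and 1266 lower once FPKM summed to the same value in each liver, and 997 higher and 942 lower with quantiles equalized. The median of all genes stood at -0.02, -0.04 and 0.01 in these 3 fits. The causes were not tested. Depth limits H2-DMb2, H2-Oa and H2-Ob, each read 14 to 66 times in a liver.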
